A study of Mus musculus with 6 samples.

Results

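The genes Tlr8, Tlr13, Ticam1, Ticam2 and Irak3 were described here in mouse Bv2 microglia, an immortalised line labelled WT, that had been deprived of oxygen and glucose and then returned to normal medium (OGD/R, for deprivation and reperfusion). They were taken by name from a deposited table of FPKM values (fragment counts scaled by exon length and library size), and all 5 were found among its 1228 genes. The 6 libraries were 3 from control cells, for which the labels give no treatment, and 3 from OGD/R cells. Per the labels' protocols, OGD/R was 30 min in nitrogen, 2 h at 1% oxygen without glucose or serum, and 24 h in standard medium. The same protocol mentions an infection 72 h earlier and does not say whether any of these cells had it, so infection and OGD/R cannot be told apart if the groups differed in it. The groups hold 1 cell line, and nothing in the labels says that the replicates were separate cultures, so the spread behind each p-value is that of these 3 samples a group and may be technical only.

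Toll-like receptors recognise molecules of microbes and damaged cells and signal through adaptors that share their cytoplasmic TIR domain. TLR8 and TLR13 sit in endosomes, where TLR13 senses bacterial ribosomal RNA, and both signal through the adaptor MyD88 and the IRAK kinases. TICAM1, also called TRIF, is the adaptor of TLR3 and, with the bridging adaptor TICAM2 (TRAM), of TLR4 after its uptake into endosomes, and it leads to type I interferon. IRAK3, also called IRAK-M, is a member of the IRAK family with little kinase activity that restrains MyD88 signalling in macrophages. In microglia these receptors are part of the response to infection and injury.

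The table is not a survey of all genes. The smallest log2 ratios of OGD/R to control means that it holds are 1.03 for higher and -0.97 for lower genes, so every gene in it, including these 5, differed by about 2-fold or more in these same samples. Absence from the table says nothing about a gene. The 5 genes were tested within it with limma on log2(FPKM + 1) over the 852 genes with a mean of at least 1 FPKM, with Benjamini-Hochberg adjustment and a threshold of 0.05. At that threshold 97.3% of the 852 genes were called, 46.6% higher and 50.7% lower in OGD/R, so a call by itself sets none of the 5 genes apart. The libraries also varied along an axis that the labels do not explain. Over the tested genes, the deviations of control replicate 1 from its group mean ran with those of OGD/R replicates 1 and 2, and those of control replicates 2 and 3 with OGD/R replicate 3. Correlations between control and OGD/R libraries were 0.375 to 0.479 within these sets and -0.628 to -0.261 across them, as a description over genes that share libraries. The sets were drawn from these same data, and each has a single library of 1 group, on which any ratio within the set rests.

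The 5 genes lie on 4 chromosomes of GRCm38. In the GENCODE M21 annotation Tlr8 (ENSMUSG00000040522) spans 167242696 to 167264329 on the minus strand of chromosome X, with 3586 nt of merged exons, and its neighbour on one side is Tlr7, which is 40600 nt away and is not analysed here. Tlr13 (ENSMUSG00000033777) spans 106143204 to 106160493 on the plus strand of the same chromosome, with 4304 nt of exons. Ticam1 (ENSMUSG00000047123) lies on chromosome 17 from 56269319 to 56276786, minus strand, with 2992 nt of exons. Irak3 (ENSMUSG00000020227) lies on chromosome 10 from 120141648 to 120202130, minus strand, with 3676 nt of exons, of which 192 nt overlap exons of Tmbim4 on the opposite strand and 28 nt an antisense RNA, Gm47009. No source used here says how reads in such shared stretches were counted, so the level of Irak3 is less certain.

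Because the receptors and the adaptor TRIF moved in opposite directions, DNA ahead of the start is shown for the 4 genes with an entry among the RefSeq promoter windows of GRCm38.p6. Each window held 250 bases before and 50 from the RefSeq start on. The lines below give only the bases ahead of the first annotated exon of any gene. Only the line of Tlr8 therefore runs up to its RefSeq start. Irak3 has 2 RefSeq starts, at 120202130 and 120201597. Its line belongs to the first of them, since the window of the other begins inside an annotated exon and is not shown. That line ends at 120202196, short of the start at 120202130, where the window meets an annotated exon. They read 5′ to 3′ on the gene's strand, and capitals mark matches to the motifs named after them.
Tlr8, chrX:167264330-167264579, minus strand: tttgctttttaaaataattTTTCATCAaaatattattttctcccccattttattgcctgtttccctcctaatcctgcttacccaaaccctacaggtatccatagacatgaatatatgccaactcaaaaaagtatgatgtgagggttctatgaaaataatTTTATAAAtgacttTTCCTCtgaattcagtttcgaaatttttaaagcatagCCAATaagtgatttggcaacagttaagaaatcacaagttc
Tlr13, chrX:106143025-106143203, plus strand: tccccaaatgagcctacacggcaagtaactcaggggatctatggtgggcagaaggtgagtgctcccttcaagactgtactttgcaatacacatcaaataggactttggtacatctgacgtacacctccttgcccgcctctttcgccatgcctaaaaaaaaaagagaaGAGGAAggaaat
Ticam1, chr17:56276787-56277017, minus strand: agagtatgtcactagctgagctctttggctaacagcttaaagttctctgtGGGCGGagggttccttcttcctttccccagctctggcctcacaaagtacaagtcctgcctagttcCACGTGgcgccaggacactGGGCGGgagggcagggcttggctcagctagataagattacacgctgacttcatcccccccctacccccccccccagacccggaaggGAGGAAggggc
Irak3, chr10:120202196-120202380, minus strand: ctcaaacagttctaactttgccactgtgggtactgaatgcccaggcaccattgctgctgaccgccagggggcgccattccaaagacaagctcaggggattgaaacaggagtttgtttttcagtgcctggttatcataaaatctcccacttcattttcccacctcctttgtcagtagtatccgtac

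On both strands of the whole 300-base windows, 9 motifs were searched, in both windows of Irak3. GAGGAA, a core bound by ETS factors such as PU.1 of macrophages, was found in 28.3% of 32851 windows of this length, and it occurred in every window of the 4 genes but the second of Irak3. It began 77 bases before the start of Tlr8 (on the other strand), 83 before that of Tlr13 and 30 before that of Ticam1, and in the first window of Irak3 it fell after the start, outside the bases shown. The Tlr8 window also held TATAAA (13.6% of windows; its matches on the strands overlap each other), CCAAT (37.4%) and TGATGNAA, a C/EBP-ATF element (3.97%). GGGCGG, the GC box (35.7%), and CACGTG, the E-box (7.15%), matched in Ticam1 and in the second window of Irak3. The first window of Irak3 held CCAAT 12 bases before its start, outside the bases shown. GAAANNGAAA, an interferon-response type element (3.44% of windows), TGANTCA, the AP-1 site (7.81%), and the NF-kB consensus (4.51%) had no match in these windows. The base composition differed widely, with a GC content of 32.3% for Tlr8, 43.3% for Tlr13, 60.0% for Ticam1 and 46.7% and 67.3% for the first and second window of Irak3, where the median over all windows was 52.7%. Of the genes that rose, Tlr8, Tlr13 and the first window of Irak3 thus lay below Ticam1 in GC content. Only the second window of Irak3 lay above it, and which of its starts these cells use was not tested. Ticam1 is the only gene that fell among those with a window, and a link between GC content and direction was not tested. A match is a description of letters and not a measured site.

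Of the 5 genes, Tlr8, Tlr13 and Irak3 rose and Ticam1 and Ticam2 fell after OGD/R, and in each the 3 OGD/R values lay wholly above or wholly below the 3 control values. Such separation held for 94.9% of the 1228 genes of the table. In bulk RNA, fewer cells that express a gene and less of its RNA per cell cannot be told apart.

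**Figure D1:**
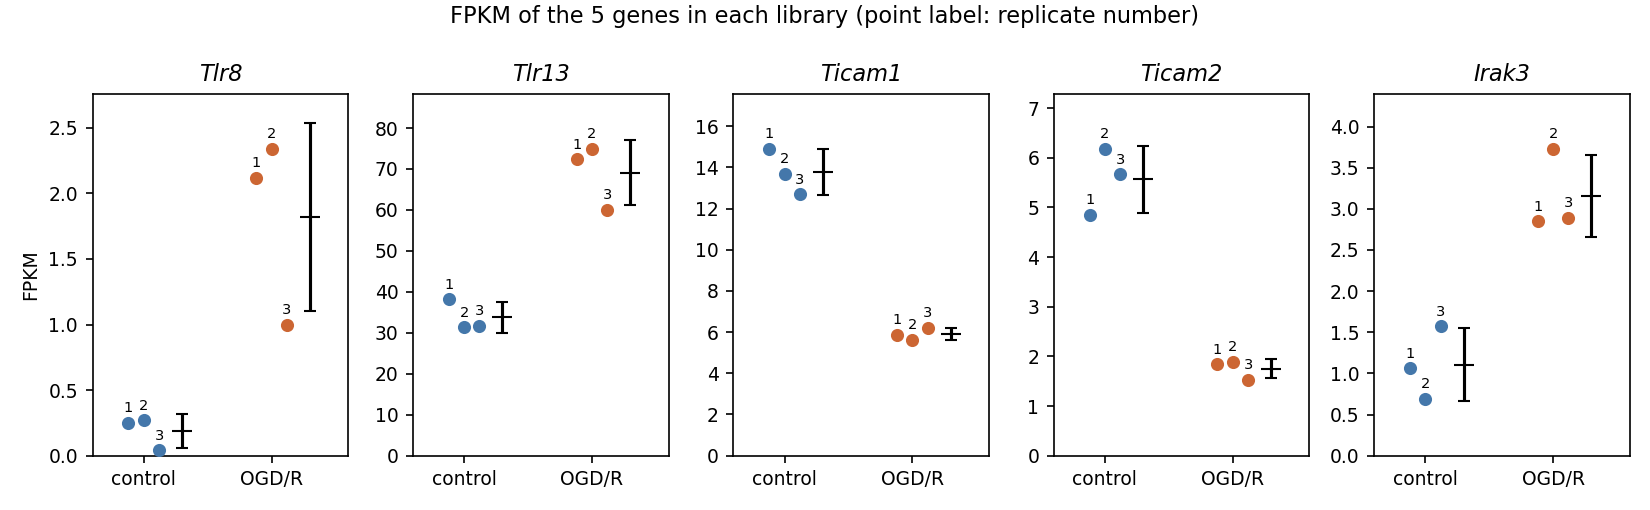
FPKM (y axis, linear, from 0, a scale for each gene) of Tlr8, Tlr13, Ticam1, Ticam2 and Irak3 in the 3 control and 3 OGD/R libraries. Points are libraries with their replicate number, and the bar beside them is the mean ± SD; the groups do not overlap in any panel, and Tlr8 in OGD/R replicate 3, at 1.00 FPKM, is below the other OGD/R libraries.

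Among the receptors, Tlr13 was the abundant one. It was at 38.19, 31.31 and 31.77 FPKM in control replicates 1 to 3 and at 72.39, 74.94 and 60.01 FPKM in OGD/R replicates 1 to 3. The lowest OGD/R library exceeded the highest control library by 21.8 FPKM, and the highest control value and the lowest OGD/R value came from the replicates that stand on opposite sides of the axis described above. Between the groups the mean rose from 33.8 ± 3.85 to 69.1 ± 7.99 FPKM (SD, n = 3), a ratio of 2.05 (limma, log2 fold change 1.01 ± 0.13 SE, 95% interval 0.69 to 1.33, adjusted p = 0.00050). Within the set of control replicate 1 with OGD/R replicates 1 and 2 the ratio was 1.93, and within the set of the other 3 libraries it was 1.90. Tlr13 ranked 87th by mean FPKM among the 1228 genes in control and 30th in OGD/R. By the size of its ratio it ranked only 599th among the 605 higher genes, close to the smallest change the table holds.

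Tlr8 was the low and steep one. Its values were 0.25, 0.27 and 0.04 FPKM in control and 2.12, 2.34 and 1.00 FPKM in OGD/R. Given the exon length, the steps between low FPKM values of each library corresponded to about 7, 8 and 1 counted units in the control libraries and about 61, 71 and 31 in the OGD/R libraries. It is not known if a unit stands for a read or a pair of reads, and control replicate 3 rests on about 1 of them. The mean went from 0.187 ± 0.127 to 1.82 ± 0.719 FPKM (SD, n = 3), a ratio of 9.75, which ranked 54th among the 605 higher genes. In limma the log2 fold change was 1.22 ± 0.22 SE (95% interval 0.69 to 1.75, adjusted p = 0.0018), a value that the pseudocount of 1 shrinks strongly at this level. With limma's voom on the recovered units it was 3.38 ± 0.74 SE, or 10.4-fold (adjusted p = 0.0028), and with a pseudocount of 0.01 it was 3.48. Tlr8 met the minimum of 1 FPKM over the 6 libraries only through its OGD/R values. The ratio was 8.92 in the set of control replicate 1 with OGD/R replicates 1 and 2, and 6.45 in the other set.

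The receptors were compared within each library, since the quotient of 2 FPKM values is free of library size. Tlr13 exceeded Tlr8 by 153, 116 and 794 times in the control libraries and by 34.1, 32.0 and 60.0 times in the OGD/R libraries, so the quotients of the groups did not overlap. On the log2(FPKM + 1) scale the ratio of Tlr8 to Tlr13 went from -4.87 ± 0.18 to -4.66 ± 0.23 (SD, n = 3), a difference of 0.21 ± 0.17 SE (exact permutation test, two-sided, p = 0.20, 0.40 adjusted over 2 ratios). With a pseudocount of 0.1 the difference was 1.76 ± 0.50 SE, at p = 0.10 in the exact test, the smallest that 3 against 3 can give. The ratio of OGD/R to control means in FPKM was 9.75 for Tlr8 and 2.05 for Tlr13. The exact test cannot decide whether these ratios differ, since this design cannot reach 0.05.

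Both adaptors fell. Ticam1 was at 14.91, 13.70 and 12.71 FPKM in control and at 5.87, 5.64 and 6.21 FPKM in OGD/R, with the narrowest spread of the 5 genes relative to its mean. Its mean fell from 13.8 ± 1.10 to 5.91 ± 0.287 FPKM (SD, n = 3), so that control was 2.33 times OGD/R (limma, log2 fold change -1.10 ± 0.10 SE, 95% interval -1.34 to -0.85, adjusted p = 0.00015). Ticam2 (ENSMUSG00000056130), the bridge between TLR4 and TRIF, lies on chromosome 18 from 46557291 to 46574533, minus strand. Of its 5792 nt of exons 838 nt are shared with exons of Tmed7 on the same strand, so its level is less certain too. Ticam2 was at 4.85, 6.18 and 5.67 FPKM in control and at 1.84, 1.89 and 1.53 FPKM in OGD/R. Control, at a mean of 5.57 ± 0.671 FPKM, was 3.17 times OGD/R, at 1.75 ± 0.195 FPKM (SD, n = 3). In limma the log2 fold change was -1.25 (± 0.12 SE, 95% interval -1.54 to -0.96, adjusted p = 0.00016). With a pseudocount of 0.01 in place of 1 it was -1.66. All 3 OGD/R libraries were low in both genes, and the separation was wide, with a gap of 6.50 FPKM between the nearest libraries for Ticam1 and of 2.96 FPKM for Ticam2. With GENCODE exon lengths the counted units of Ticam1 lay 0.18 to 0.47 from a whole number, beyond the rounding error in all 6 libraries, and those of Ticam2 lay 0.31 to 0.48 from it in OGD/R. The exon lengths behind the authors' values of these genes may therefore differ from those given here, and their units are not printed. Among the 623 lower genes, Ticam2 ranked 243rd and Ticam1 411th by the size of the ratio.

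Within the libraries, Ticam1 exceeded Ticam2 by 3.07, 2.22 and 2.24 times in control and by 3.19, 2.98 and 4.06 times in OGD/R, and these quotients overlapped. The log2 ratio of (FPKM + 1) was 1.17 ± 0.23 in control and 1.33 ± 0.16 in OGD/R (SD, n = 3), a difference of 0.16 ± 0.16 SE (exact permutation test, two-sided, p = 0.50, also after adjustment over 2 ratios). With a pseudocount of 0.1 the difference was larger, at 0.41 ± 0.20 SE (exact permutation test, p = 0.20). With 3 libraries a group this test cannot give a p below 0.10, so it cannot decide whether the falls differed. It does not show that they were equal. Between the library sets described above, the larger of the falls was not in the same set for both adaptors. Nothing is read from this, since each set has a single library of 1 group. In the set of control replicate 1 with OGD/R replicates 1 and 2, control exceeded OGD/R 2.59-fold for Ticam1 and 2.60-fold for Ticam2, whereas in the other set it did so 2.13-fold and 3.87-fold.

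Irak3, the restraining member of the IRAK family, rose. It was at 1.06, 0.69 and 1.57 FPKM in control, about 30, 21 and 44 counted units, and at 2.85, 3.73 and 2.89 FPKM in OGD/R, about 84, 116 and 92 units. The control libraries were spread by a coefficient of variation of 39.9%, against 15.7% in OGD/R, and the nearest libraries of the groups were 1.28 FPKM apart. The mean went from 1.11 ± 0.442 to 3.16 ± 0.497 FPKM (SD, n = 3), a ratio of 2.85 (limma, log2 fold change 1.00 ± 0.18 SE, 95% interval 0.56 to 1.43, adjusted p = 0.0019). Voom on the units gave a log2 fold change of 1.57 ± 0.30 SE, or 2.97-fold (adjusted p = 0.0013). The ratio was 3.10 in the set of control replicate 1 with OGD/R replicates 1 and 2 and 2.56 in the other set.

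In FPKM, which allows levels of different genes to be compared per length, the order in control was Tlr13, Ticam1, Ticam2, Irak3 and Tlr8, and no neighbours in it came within their SDs of each other. In OGD/R the order was Tlr13, Ticam1, Irak3, Tlr8 and Ticam2. Tlr8 (1.82 ± 0.719 FPKM) and Ticam2 (1.75 ± 0.195 FPKM; SD, n = 3) did not differ there beyond their spread, although Ticam2 had been far above Tlr8 in every control library. Irak3, below Ticam2 in each control library, was above it in each OGD/R library. These places depend on exon lengths that are uncertain for Ticam1 and Ticam2, and on exons that Ticam2 and Irak3 share with other genes.

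**Figure D2:**
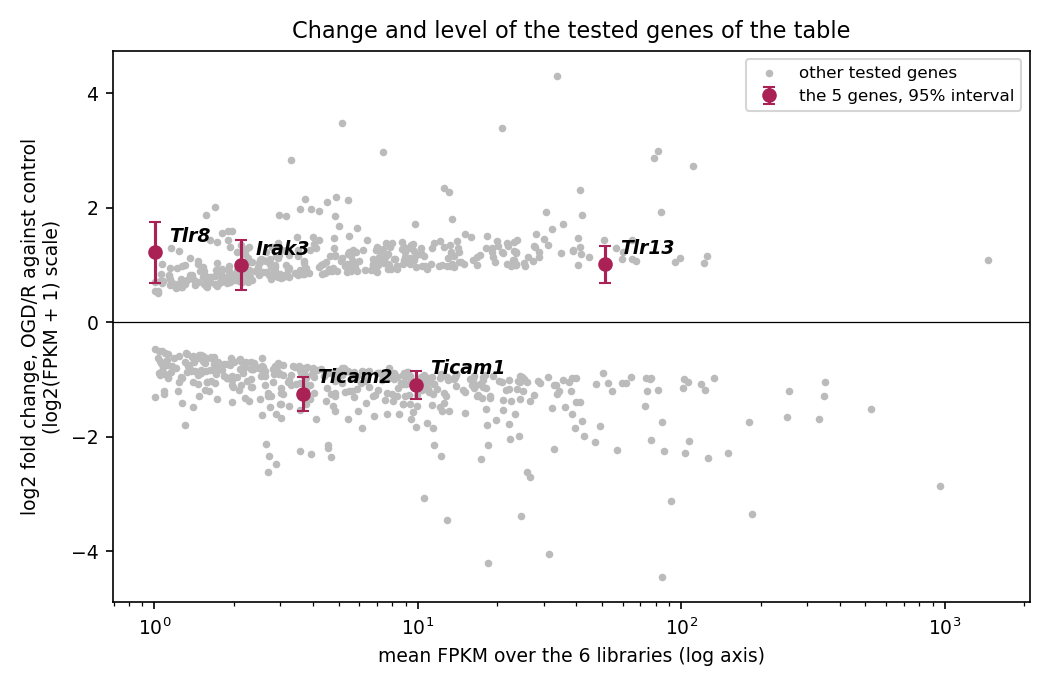
Log2 fold change (y axis, log2(FPKM + 1) scale) against mean FPKM over the 6 libraries (x axis, log scale) for the 852 tested genes, with the 5 genes in red and their 95% limma intervals. The gap around 0 reflects the choice of genes in the table; Tlr13 stands at a high level with a change of 1.01, and Tlr8 at the low end with 1.22.

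Among the tested genes of the table, the median log2 fold change on the log2(FPKM + 1) scale was 1.04 over the higher and -1.04 over the lower genes. On this scale Tlr13 stood at 1.01, Irak3 at 1.00 and Ticam1 at -1.10, and Tlr8 (1.22) and Ticam2 (-1.25) ranked 120th of 399 higher and 132nd of 453 lower genes. The scale shrinks the change of low genes and leaves that of Tlr13, so these places differ from those by the ratio of FPKM, where Irak3 ranked 266th and Tlr13 599th of 605.

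Other genes of Toll-like receptor signalling were taken from 10 lists with 169 genes in all, of which 26 were in the table and 21 were tested. All 21 were called, 7 higher and 14 lower, in a table where 97.3% of tested genes were called, 46.6% higher and 50.7% lower, so that the count of calls is near the share over the table. Their median log2 fold change was -0.94, beside -0.68 over all tested genes. These medians, over genes that go both ways, were -1.10 and -0.98 with a pseudocount of 0.1 and -0.90 and -0.12 with no filter, and nothing is read from their difference. Leaving out the 5 genes, 4 of 16 rose and 12 fell. No surface receptor or co-receptor out of 11 and no other nucleic acid sensor out of 19 was in the table, and the MyD88, TLR3, TLR4, TLR7 and TLR9 genes are not analysed here. Thus the receptors that TRIF and TRAM serve, and the adaptor that TLR8 and TLR13 use, could not be set beside the 5 genes.

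Of the 23 genes for trafficking, processing and ligand control of endosomal receptors, the table held Hsp90b1, the chaperone gp96 that folds most Toll-like receptors. It was at 413.39, 507.07 and 561.66 FPKM in control and at 204.34, 214.64 and 183.96 FPKM in OGD/R. It thus fell, as did 50.7% of all tested genes (limma, log2 fold change -1.28 ± 0.15 SE, adjusted p = 0.00028). A link between its fall and the receptors was not tested. Of 17 NF-kB and IRF factors 2 were in the table and both fell: Relb, a subunit of NF-kB, with a log2 fold change of -0.74 (adjusted p = 0.0013, limma) and Nfkbiz, a nuclear IkB protein induced by Toll-like receptors, with -0.92 (adjusted p = 0.0031, limma). Of 27 negative regulators 4 were in the table, of which Irak3 rose and 3 fell. Over all tested genes 46.6% rose and 50.7% fell, and nothing is read from counts as small as those of these lists. The stress-induced repressor Atf3 fell from 77.4 ± 12.5 to 21.2 ± 3.75 FPKM, Nlrc3, an inhibitory NLR protein, from 23.0 ± 0.709 to 10.3 ± 0.356 FPKM, and Cd300lf, an inhibitory receptor of myeloid cells, from 16.5 ± 4.65 to 7.76 ± 1.98 FPKM (SD, n = 3).

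Of 27 target genes of the TRIF and MyD88 branches 12 were in the table, of which 9 were tested, 3 rose and 6 fell, where 46.6% of all tested genes rose and 50.7% fell. Those with the largest change were Lcn2 (log2 fold change -2.34), Ptgs2 (-1.55), the ubiquitin-like interferon target Isg15 (-1.22) and Nos2, the inducible nitric oxide synthase (-0.95). The 3 that rose, named after their values were seen, were the chemokine gene Cxcl10 with 0.62, Il1a with 0.91 and Ifit2 with 0.88. Il1b, Il6 and Saa3 were below the expression minimum and were not tested. In control and OGD/R, Il1b was at 0.0933 ± 0.162 and 0.663 ± 0.270 FPKM and Il6 at 1.33 ± 0.317 and 0.180 ± 0.139 FPKM. Saa3 was at 1.35 ± 0.477 and 0.527 ± 0.463 FPKM (SD, n = 3), with groups that overlapped. Of 9 genes of the interleukin-1 receptor family, whose TIR domain recruits the same MyD88 and IRAK proteins, 3 were in the table. Il18rap, a subunit of the interleukin-18 receptor, rose with a log2 fold change of 0.96 (limma, adjusted p = 0.00041), its means being 1.88 ± 0.275 and 4.59 ± 0.465 FPKM (SD, n = 3). Il1r1 was at 1.09 ± 0.199 and 0.523 ± 0.101 FPKM and the decoy receptor gene Il1r2 at 0.117 ± 0.107 and 0.717 ± 0.372 FPKM in control and OGD/R, neither tested.

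**Figure D3:**
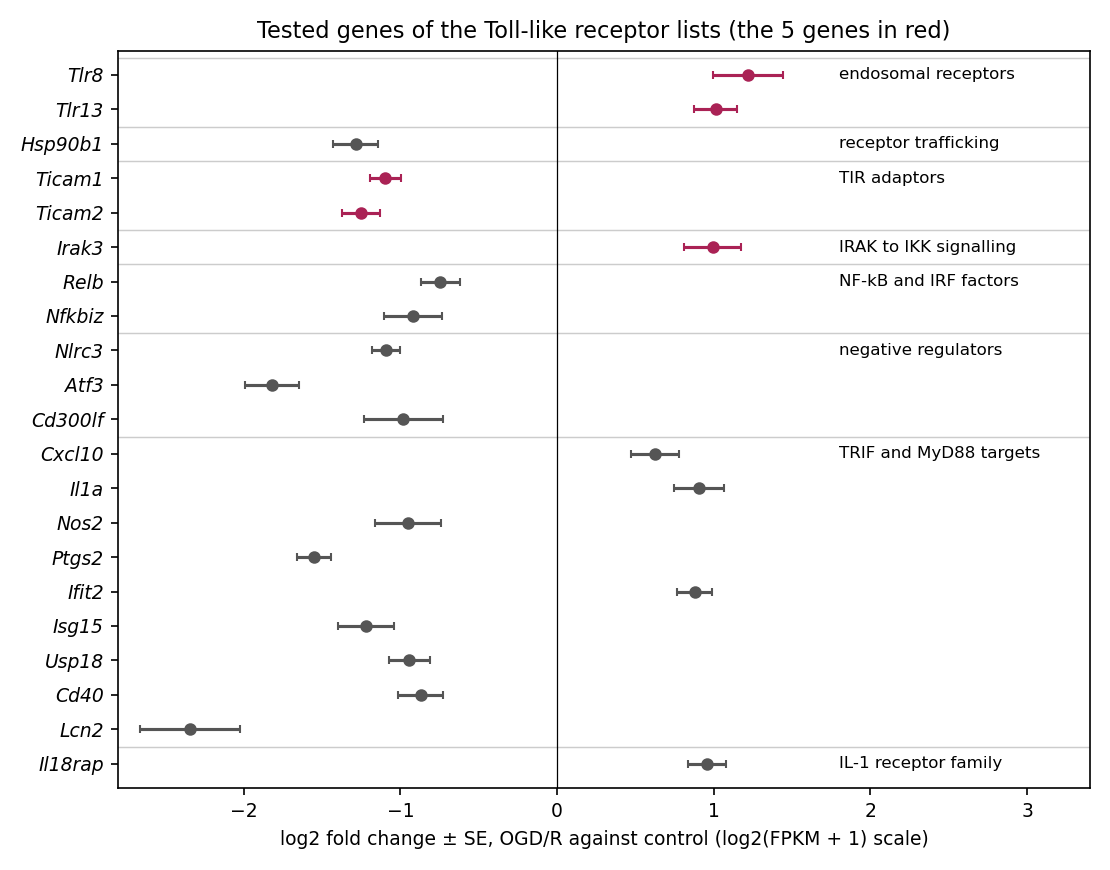
Log2 fold change ± SE (x axis, limma on log2(FPKM + 1)) of the 21 tested genes on the Toll-like receptor lists, grouped by list on the y axis, with the 5 genes in red. Hsp90b1, Relb and Nfkbiz fell, and of the 4 negative regulators Irak3 rose and 3 fell, in a table where 46.6% of tested genes rose and 50.7% fell.

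Markers of microglia and macrophages in the table were 3 of 18 listed. Cx3cr1 rose from 0.373 ± 0.150 to 1.77 ± 0.220 FPKM and Fcgr1, the high-affinity Fc receptor, fell from 51.0 ± 3.90 to 24.2 ± 0.600 FPKM (SD, n = 3). P2ry12, at 0.530 ± 0.108 and 1.25 ± 0.324 FPKM, was not tested, and the other markers of the labelled cell type are not analysed here. Of 34 markers of other cell types 3 were in the table, Vwf, Tubb3 and Cspg4. They summed to 4.01 to 5.11 FPKM in control libraries and 1.47 to 1.97 FPKM in OGD/R libraries, and their part in the results was not tested.

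The genes most like each of the 5 were sought among 634 tested genes with a symbol, by the root mean square difference over the 6 libraries of log2(FPKM + 1) minus the gene's own control mean. For Tlr13 these were Brca1 (0.047), Mef2c (0.054) and Ppm1l (0.061). Brca1 was at 6.22, 4.99 and 5.09 FPKM in control and at 13.32, 12.32 and 10.58 FPKM in OGD/R, with control replicate 1 high and OGD/R replicate 3 low, as in Tlr13. For Ticam1 they were Wars (0.054), Nfil3 (0.056) and Eps8 (0.064), and for Ticam2 Cnppd1 (0.055), Stra6l (0.070) and Recql4 (0.072). No profile came as near to the low genes. The nearest for Irak3 were Gda (0.13), Cyp4f18 (0.13) and Melk (0.14), and for Tlr8 Naip1 (0.16), Ammecr1 (0.16) and Stard4 (0.17). The likeness to Tlr8 is one of this scale, on which the pseudocount of 1 shrinks its change. In mean FPKM Tlr8 went from 0.187 to 1.82, whereas Naip1 went from 0.88 to 3.69, Ammecr1 from 5.21 to 12.7 and Stard4 from 5.65 to 14.0. Naip1, an NLR gene, was at 1.08, 0.90 and 0.66 FPKM in control and at 3.96, 4.01 and 3.09 FPKM in OGD/R, with replicate 3 the lowest of both groups, as in Tlr8. All these profiles share the same libraries and a table chosen for its group difference.

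**Figure D4:**
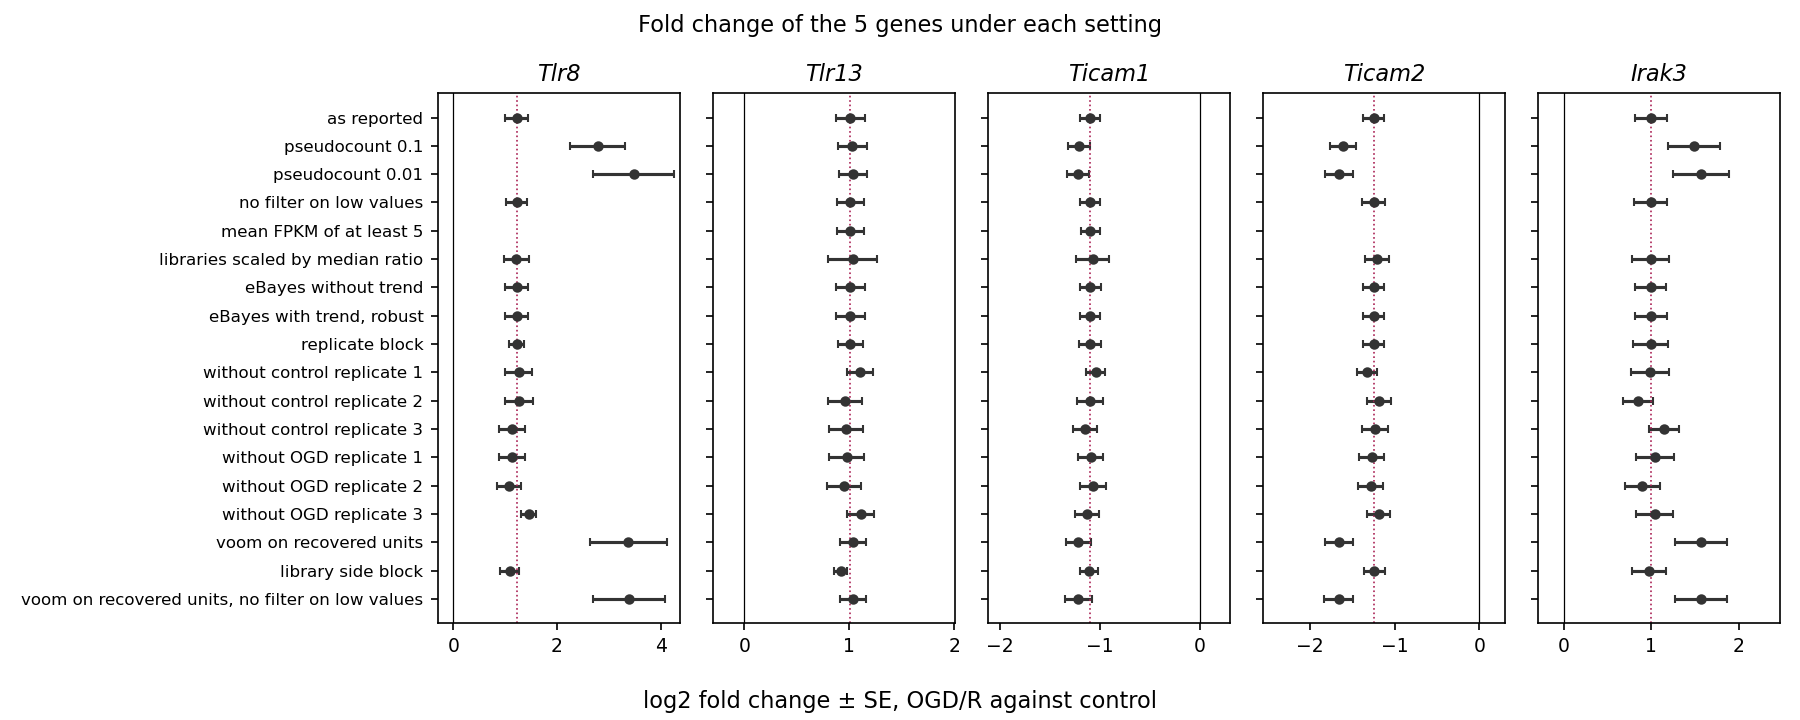
Log2 fold change ± SE (x axis) of each of the 5 genes under every setting tried (y axis), with the reported value as a dotted line. Each gene stays on its side of 0. With a pseudocount of 0.01 the value moves from 1.22 to 3.48 for Tlr8, from 1.00 to 1.57 for Irak3 and from -1.25 to -1.66 for Ticam2. Tlr13 stays between 0.92 and 1.11 over the settings. Settings without a point left the gene untested.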

How the data were processed

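RNA sequencing libraries of Bv2 cells (3 control, 3 OGD/R) were made from 1 ug of RNA and read as pairs of 150 nt, per the labels' protocols. The authors deposited FPKM values printed to 2 decimals. The submitters' processing notes name GRCm38 as genome build. Aligner, counting tool, annotation and the choice of genes: not given in the sources used here. Genes with a mean of at least 1 FPKM were fitted, as log2(FPKM + 1), with group alone in limma 3.58.1 (R 4.3.3; trended eBayes, two-sided tests). Gene IDs were matched to GENCODE M21 (1227 of 1228). With its exon lengths, the library sizes that turned low values (under 15 units) whole, within rounding plus 0.03 units, were 7612000 to 8654000 units, with 97.3% to 99.6% of values whole, against at most 49.7% at any size over 3% away and under 1.4 times it. Ticam1 in every library, Ticam2 in OGD/R and Irak3 in control replicate 1 did not come out whole. Rounded units entered limma's voom as an alternative. The fit was also run on simulated data in which most genes did not change, unlike this table. That run does not bear on the p-values given here. Promoter windows came from RefSeq; Ticam2 is not shown there.

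The 5 genes, the gene lists and the tests were chosen with earlier results of these data known. Named genes are the 5, up to 4 genes a list (largest change past the threshold first), and the 3 nearest profiles, without Gm-numbered, Rik and -ps symbols and clone names. Alternatives covered the pseudocount, the filter, a scaling, eBayes, a replicate block, voom and leaving out each library. Python 3.11.15, pandas 2.3.3, numpy 2.4.6, scipy 1.17.1 and matplotlib 3.10.9 did the rest.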

Additional observations from a re-analysis of the deposited data

How the results depend on the processing

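Tlr8, Tlr13, Ticam1, Ticam2 and Irak3 kept direction and call in every setting that could test them (16 settings for Tlr8, Ticam2 and Irak3, 17 for the others), with a highest limma adjusted p of 0.0083, for Irak3. In a table chosen for its group difference, this sets none of the 5 genes apart. Where all 852 genes were tested, 789 (without control replicate 2) to 844 (libraries scaled by median ratio) of them were called. A filter of at least 5 FPKM left Tlr8, Ticam2 and Irak3 untested. With it, 11 listed pathway genes were called in place of 21, and 409 of 423 genes of the table in place of 829 of 852, since fewer genes were tested. Without any 1 library the log2 fold change was 1.08 to 1.45 for Tlr8, 0.95 to 1.11 for Tlr13, -1.15 to -1.04 for Ticam1, -1.33 to -1.18 for Ticam2 and 0.85 to 1.15 for Irak3. Voom without a filter and a block for the library sets were chosen after seeing the data; the block gave 1.08, 0.92, -1.11, -1.24 and 0.98 in the same order. Same-numbered libraries deviated together at 0.428, -0.349 and 0.375, and control replicate 1 was closer to OGD/R replicate 2 (0.451), so the numbers show no steady pairing. With the replicate block, which leaves these fold changes as they were, all 5 stayed called and 835 of 852 genes of the table were called. The within-library ratios of receptors and adaptors passed no test in any setting, and their designs allow no p below 0.10 (0.25 with the block).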
